A study of Mus musculus with 8 samples.

Results

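The anti-apoptotic Bcl2 family and Hax1 were followed in A20 cells, a mouse B lymphoma line, with and without a transfected immunoglobulin heavy chain. The members are Bcl2, Bcl2l1, Bcl2l2, Mcl1, the 4 Bcl2a1 copies (a, b, c and d) and Hax1, chosen by gene name, with every non-control probe carrying one of those names. They came to 7 of the 9 genes, read by 11 of the 55681 probes on the array. Bcl2a1a and Bcl2a1b had no probe of their own name. The probe named Bcl2a1d lists RefSeq transcripts of 3 genes, Bcl2a1d, Bcl2a1b and Bcl2a1a, so its signal may come from any of the 3 copies, and which of them A20 cells express cannot be read from it.

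The study set stable transfectants carrying membrane IgE against untransfected cells and against a stable transfectant carrying membrane IgM. The IgE lines were clone 41 and clone 18, and the control lines were IgM cells and untransfected A20 cells, with 2 one-colour arrays per line and 8 arrays in all. Every line is A20, grown in the same medium with 10% serum and 50 µM beta-mercaptoethanol, and no further treatment is labelled. Each IgE line is 1 clone, and the labels give neither the vector nor the promoter that drives the transfected chain. Nothing in the labels tells whether the paired arrays of a line stem from separate cultures. The p-values therefore reflect only the spread among these samples, which may be technical.

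Bcl2, Bcl2l1 (Bcl-xL), Bcl2l2 (Bcl-w), Mcl1 and Bcl2a1 (A1) hold back the mitochondrial route to cell death. They bind BH3-only proteins such as Bim and the effectors Bax and Bak, which would otherwise open the outer mitochondrial membrane. Mature B cells depend on several of these proteins. A1 is known as a target of NF-kB that antigen receptor and CD40 signals induce, and Mcl1 as a short-lived protein under control by ubiquitin ligases. Hax1 is not a Bcl2 relative: it is a mitochondrial and cytoplasmic protein that binds Hcls1, protects lymphocytes and neutrophils from cell death, and has been reported to bind the cytoplasmic tail of membrane IgE.

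The probes behind the results are 60 bases long. No member probe shared a run of 20 bases with any other probe on the array. That compares probes only, and binding of a probe to transcripts of other genes was not tested. Positions are those of the array files on build mm9, for which no gene annotation was used here. The Bcl2a1d probe lies at chr9:88618165-88618224 on the minus strand, and its first 30 bases are shown because the probe can read 3 gene copies. The Bcl2a1c probe lies at chr9:114239422-114239481 on the plus strand and lists 1 RefSeq transcript. Also shown are the Bcl2 probe at chr1:108608970-108609029, the dimmer Bcl2l1 probe at chr2:152655185-152655244 and the dimmer Hax1 probe at chr3:89801310-89801369, all on the minus strand, whose signals were measured on all 8 arrays without saturation.
Bcl2a1d, first 30 bases: cacttggcatttccatttacaaacatgaaa
Bcl2a1c: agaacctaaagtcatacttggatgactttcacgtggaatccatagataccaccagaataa
Bcl2: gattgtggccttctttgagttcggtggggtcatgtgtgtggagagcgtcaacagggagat
Bcl2l1: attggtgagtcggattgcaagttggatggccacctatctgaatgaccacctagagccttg
Hax1: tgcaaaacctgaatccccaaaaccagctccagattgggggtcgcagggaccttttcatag

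Signals are given as the log2 of a spot's processed intensity minus the log2 of the 75th percentile of its own array, so that 0 is the level of a fairly bright probe and each unit is a doubling. Levels of different probes are not comparable, because probes differ in how well they hybridise. A probe was tested if some line had it well above background on each of its 2 arrays, which held for 29140 probes. Of the member probes, 9 passed, for 6 genes, and 7 of these were well above background on all 8 arrays. Differences were tested with limma over all 29140 probes and called at a Benjamini-Hochberg adjusted p under 0.05 with 2-fold or more between the groups.

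Across the whole array, 49.7% to 58.9% of spots were well above background. The 75th percentile was lower on the 4 IgE arrays than on the 4 control arrays and ran from 474 to 664 intensity units. The pair of untransfected arrays differed most from each other, with an SD of the log2 difference of 0.74 over tested probes, against 0.43 to 0.51 in the other lines. All 8 B cell markers examined, Cd79a, Cd79b and Ms4a1 among them, were well above background on each of the 8 arrays. Among the markers of other cell types, Cd8a, Lyz2, Cd14 and Col1a1 were not well above background on any array, while 5 of 8 T cell, 6 of 8 myeloid, 3 of 4 plasma cell and 4 of 7 erythroid and stromal markers were well above background on all 8. The summed T cell marker signal, in units of the array's 75th percentile, ran from 5.06 to 6.16 on the IgE arrays and from 4.69 to 6.32 on the control arrays. The myeloid sum ran from 49.0 to 71.0 on the IgE arrays and from 45.6 to 58.7 on the control arrays. The erythroid and stromal sum ran from 3.16 to 15.0 on the IgE arrays and from 0.916 to 11.2 on the control arrays, and all of these ranges overlap. Single markers were called nonetheless: of the myeloid markers Cd68 was higher (log2 difference 1.68 ± 0.16, limma adjusted p = 0.000976) and Emr1 lower (-4.41 ± 0.37, adjusted p = 0.000561) in the IgE lines. Hbb-b1, a beta globin, was higher (1.88 ± 0.28, limma adjusted p = 0.00638), and the T cell marker Cd3g, well above background on 2 of 8 arrays, was called lower (adjusted p = 0.000877). In such bulk RNA, fewer cells of a type and less RNA per cell cannot be told apart. The part of these markers in the member results was not tested.

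Only the Bcl2a1 probes were called in the comparison of IgE lines with control lines. Of the 9 member probes tested, 2 were called higher and 0 lower, where 3.6% of all probes were called higher and 5.39% lower. One of the calls, Bcl2a1c, passed the filter only through clone 41, in which it was high, so the count is a description and supports nothing. The 2 called probes may also read transcripts of the same A1 copies, which was not tested. Unadjusted limma p-values under 0.05 were reached by 3 member probes, none of them lower in the IgE lines. The share of all probes at that cut is not given here. It includes the 2406 higher and 2542 lower of 29140 probes with a limma adjusted p under 0.05 at any fold. Counts at an unadjusted p, here and in the related lists below, are therefore a description only. Over the 29140 probes, 1050 were called higher and 1570 lower, and with arrays scaled on their median instead, 1843 were called higher and 1561 lower. That scaling moved the median log2 difference of all probes to 0.24, against 0.05 with the 75th percentile, and it raised every member's difference by the same step. The median over the 9 member probes was 0.26.

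The Bcl2a1d probe, which can read 3 copies of the A1 gene, was the member with the widest range. Its log2 signal was 1.51 and 0.41 in clone 41 and -0.84 and -0.35 in clone 18, against -2.23 and -2.80 in IgM cells and -3.27 and -7.10 in untransfected cells. In intensity units these arrays read 1492 and 628 in clone 41 and 274 and 387 in clone 18, against 140 and 83.8 in IgM cells and 69.1 and 4.31 in untransfected cells. All 4 IgE arrays lay above all 4 control arrays, and the untransfected array that read 4.31 was not well above background.

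The IgE lines averaged 0.18 ± 1.02 and the control lines -3.85 ± 2.21 for this probe (log2, SD, n = 4 arrays each). The log2 difference was 4.03 ± 0.79 (SE), a 16.3-fold higher signal with a 95% interval of 4.44 to 60.1, and it passed the test (limma adjusted p = 0.0168, higher in 4 of 4 IgE arrays). The control side rests in part on the dim untransfected array: without untransfected replicate 2 the log2 difference was 3.07, and with every value raised to its array's detection floor, an alternative chosen after seeing the data, it was 3.48. Without untransfected replicate 1 it was 4.99. The direction was the same in all 22 alternatives that tested the probe, with log2 differences from 2.52 to 4.99. The call was kept in 18, with limma adjusted p-values over the 22 from 2.75e-15 to 0.0693. It was lost without clone 41 replicate 1 (limma adjusted p = 0.0618), without clone 18 replicate 1 (0.0616) or replicate 2 (0.0693), and with no filter on dim probes (0.0655).

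Line by line, the Bcl2a1d probe was highest in clone 41, then in clone 18, IgM cells and untransfected cells. No neighbours in that order differed beyond their spread by the limma test. The log2 difference was 1.55 ± 1.12 between clone 41 and clone 18 (adjusted p = 1.00), 1.92 ± 1.12 between clone 18 and IgM cells (adjusted p = 0.335) and 2.67 ± 1.12 between IgM and untransfected cells (adjusted p = 0.340). Of the other pairs, clone 41 against untransfected cells was called (6.14 ± 1.12, adjusted p = 0.0255). That difference was 8.05 without untransfected replicate 1 and 4.22 without replicate 2, and the call was lost without any 1 of the 4 IgE arrays (limma adjusted p from 0.0644 to 0.144) and with no filter on dim probes (0.102). Clone 18 against untransfected cells had a difference of 4.59 ± 1.12 with an adjusted p of 0.0534, which was 0.0441 with the slide row, the same as the replicate number, as a block, and clone 41 against IgM cells one of 3.47 ± 1.12 with an adjusted p of 0.120. The pair of untransfected arrays weighs on all of these tests, because the lines share 1 estimate of the spread. Clone 18 was called higher than the remaining untransfected array when replicate 1 (adjusted p = 0.00201) or replicate 2 (0.0318) was left out. With either untransfected array left out, both clones were called higher than IgM cells, at limma adjusted p = 0.00598 for clone 41 and 0.0325 for clone 18. With untransfected replicate 1 left out, IgM cells were also called higher than the remaining untransfected array, by 4.58 on the log2 scale (adjusted p = 0.0138).

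Bcl2a1c, a copy of A1 generally regarded as truncated, was near the detection limit. Its probe read -2.76 and -3.62 in clone 41 and -4.97 and -4.64 in clone 18, against -6.85 and -7.01 in IgM cells and -6.82 and -6.92 in untransfected cells, on the log2 scale. The intensities were 77.5 and 38.6 in clone 41 and 15.6 and 19.7 in clone 18, against 5.68 and 4.53 in IgM cells and 5.88 and 4.88 in untransfected cells. The 4 IgE arrays lay above the 4 control arrays, but only the 2 arrays of clone 41 were well above background. The probe thus passed the filter through the line in which it was high. Whether it also binds transcripts of the other A1 copies was not tested. Over the 8 arrays its log2 values had a Pearson r of 0.839 with those of the Bcl2a1d probe.

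For Bcl2a1c the fitted log2 difference between IgE lines (mean -4.00) and control lines (mean -6.90) was 2.90 (limma adjusted p = 0.000285, higher in 4 of 4 IgE arrays). It is set by readings not well above background on 6 of 8 arrays and is not a measured size, so no fold is given for the IgE lines together. For clone 41 a bound can be given, with the lowest signals well above background, log2 -4.90 to -4.63 by array, standing for the dim side. Clone 41 was at least 3.10-fold higher than IgM cells and at least 3.12-fold higher than untransfected cells. The limma test is of the fitted difference, not of these bounds (adjusted p = 0.000709 against IgM and 0.000957 against untransfected cells). Over the alternatives the fitted log2 difference fell as low as 1.16 against IgM and 1.21 against untransfected cells. The limma adjusted p reached 0.0402 and 0.0424. The fit also called clone 18 against IgM cells (limma adjusted p = 0.00665) and untransfected cells (adjusted p = 0.00911). No array of these 3 lines was well above background, so these calls compare readings near background and measure no level. The clone 18 call against untransfected cells was lost without clone 18 replicate 1 (limma adjusted p = 0.0541) or replicate 2 (0.0737), and the one against IgM cells without replicate 2 (0.0597). Both were lost under normexp, short of 2-fold at log2 differences of 0.67 against IgM cells and 0.71 against untransfected cells, and in the authors' deposited log2 table (0.54 and 0.61). The call between IgE and control lines fell short of 2-fold under normexp background correction (log2 difference 0.94), in the authors' deposited log2 table (0.99) and with values raised to the floor (0.87). With values raised to the floor the clone 18 differences were 0.09 against IgM cells (limma adjusted p = 0.866) and 0.11 against untransfected cells (adjusted p = 0.836), where the adjusted p over all alternatives ran from 3.26e-06 to 0.866 against IgM cells and from 0.000246 to 0.836 against untransfected cells.

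Between the clones, Bcl2a1c was at least 2.90-fold higher in clone 41 than in clone 18 by its bound. The fitted log2 difference of 1.62 ± 0.30 did not pass the test (limma adjusted p = 0.177).

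**Figure D1:**
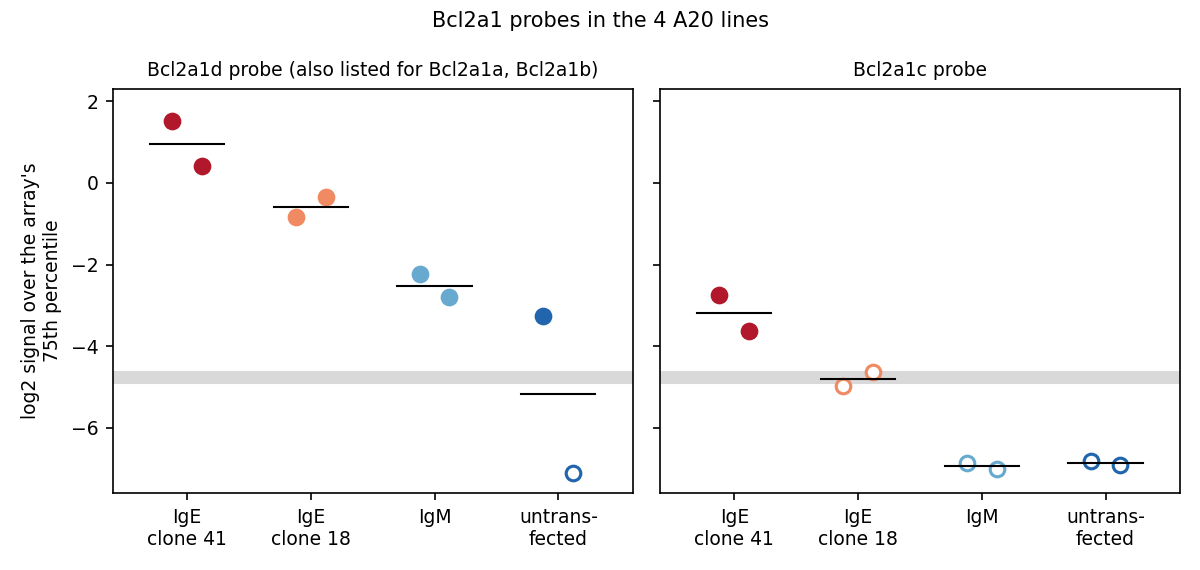
Log2 signal, relative to each array's 75th percentile, of the Bcl2a1d and Bcl2a1c probes on each of the 8 arrays, by line. Filled points were well above background, open points were not, black lines are means of the 2 arrays of a line, and the grey band spans the array floors of log2 -4.90 to -4.63. For both probes the 4 IgE arrays sit above the 4 control arrays, and for Bcl2a1c only clone 41 is above the band.

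The sequence before the gene starts is shown for Bcl2a1d and Bcl2a1c because both probes read higher on the IgE arrays and the stretches that align there are near-identical. The sequences are from RefSeq on GRCm38.p6, from 250 bases before to 50 after each start, and all 9 members were found. Between the 4 Bcl2a1 copies, 93.2% to 99.2% of 190 to 300 aligned columns were identical. Bcl2a1c and Bcl2a1d aligned over 190 columns, so part of each window lay outside the alignment. GAGGAAGT lies in the stretch these copies share, at different distances from their starts. The 250 bases before the start lie at chr9:88731851-88732100 (minus strand) for Bcl2a1d and at chr9:114329885-114330134 (plus strand) for Bcl2a1c, with capitals on GAGGAAGT, a core of the kind that Ets factors such as PU.1 bind, which starts at -104 and at -214.
Bcl2a1d, 250 bases before the start: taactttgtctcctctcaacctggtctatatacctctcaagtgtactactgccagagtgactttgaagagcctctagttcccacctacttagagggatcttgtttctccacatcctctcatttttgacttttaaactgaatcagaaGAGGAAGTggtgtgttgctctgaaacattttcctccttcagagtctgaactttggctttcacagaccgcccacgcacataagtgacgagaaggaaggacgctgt
Bcl2a1c, 250 bases before the start: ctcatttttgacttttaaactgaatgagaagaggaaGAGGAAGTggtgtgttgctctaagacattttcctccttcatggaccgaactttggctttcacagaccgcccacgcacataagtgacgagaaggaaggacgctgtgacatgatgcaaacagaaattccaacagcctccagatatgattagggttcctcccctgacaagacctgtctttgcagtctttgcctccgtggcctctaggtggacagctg

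Both strands of each window were searched for GAGGAAGT, for TGANTCA, the core of AP-1 type sites, and for the NF-kB consensus. GAGGAAGT was present in all 4 Bcl2a1 windows and in 2.44% of 32851 windows of the same length. TGANTCA was present in the Bcl2a1a, Bcl2a1b and Bcl2a1d windows and not in that of Bcl2a1c, and in 6.75% of all windows. The NF-kB consensus was in none of the 4 Bcl2a1 windows, in 1 Bcl2l1 and 1 Hax1 window, and in 3.90% of all windows. The copies are related by descent, so these matches are not independent of each other, and a match is a description of letters, not of a bound site.

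Mcl1, the short-lived family member, was bright in every line and its difference between IgE and control lines did not pass the test. The probe at chr3:95465543-95465602 read 3.68 and 3.67 in clone 41 and 3.31 and 3.53 in clone 18, against 3.25 and 2.62 in IgM cells and 3.27 and 2.83 in untransfected cells (log2). The 4 IgE arrays lay above the 4 control arrays by a gap of 0.04, and the log2 difference was 0.55 ± 0.19 (95% interval 0.11 to 1.00, limma adjusted p = 0.0884). In unscaled intensity the groups overlapped, at 4853 to 6692 on the IgE arrays and 3582 to 6423 on the control arrays. Clone 41 against IgM cells differed by 0.74 ± 0.27 with this probe (limma adjusted p = 0.158). That pair was called only with arrays scaled on their median (log2 difference 1.18, limma adjusted p = 0.0459). The second Mcl1 probe, at chr3:95466855-95466914, read 5.10 and 5.39 in clone 41 and 5.37 and 5.49 in clone 18, against 4.93 and 5.02 in IgM cells and 4.81 and 5.33 in untransfected cells. Its groups overlapped, and the log2 difference was 0.32 ± 0.16 (95% interval -0.07 to 0.70, limma adjusted p = 0.222).

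Bcl2l1 encodes Bcl-xL, and its brighter probe was among the signals at the top of the scanner's range. That probe, at chr2:152606404-152606463, was saturated on 7 of 8 arrays and read 7.02 and 7.14 in clone 41 and 7.10 and 7.11 in clone 18, against 6.79 and 6.94 in IgM cells and 6.60 and 6.99 in untransfected cells. The groups did not overlap on this scale, by a gap of 0.03, but in unscaled intensity they did, at 67096 to 68265 on the IgE arrays and 64229 to 74949 on the control arrays. The log2 difference was 0.26 ± 0.14 (limma adjusted p = 0.226), and no fold is given, since 4 of 4 IgE arrays and 3 of 4 control arrays were saturated.

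The unsaturated Bcl2l1 probe read 2.20 and 2.15 in clone 41 and 1.92 and 2.05 in clone 18, against 2.14 and 2.56 in IgM cells and 1.42 and 2.40 in untransfected cells. The lowest and the highest value both came from control arrays. The log2 difference between IgE and control lines was -0.05 ± 0.23, with a 95% interval of -0.60 to 0.50 (limma adjusted p = 0.904).

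Bcl2, the founding member, was dim but measured on all 8 arrays. Its probe read -1.60 and -1.76 in clone 41 and -1.95 and -1.67 in clone 18, against -1.56 and -1.68 in IgM cells and -2.60 and -1.13 in untransfected cells. The untransfected arrays held both extremes. IgE lines averaged -1.74 ± 0.15 and control lines -1.74 ± 0.62 (SD, n = 4 arrays each), and the interval of the log2 difference, -0.74 to 0.74, leaves room for a change of up to 1.67-fold either way (limma adjusted p = 0.999). Bcl2l2, which encodes Bcl-w, has probes at chr14:55506840-55506899 and chr14:55507008-55507067, and neither was well above background on any array. Their log2 values ran from -7.07 to -5.85 on the IgE arrays and from -7.19 to -4.67 on the control arrays, so they were not tested and no order of lines is given.

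Hax1 was bright in all 4 lines and was not called in any comparison. The brighter Hax1 probe, at chr3:89799379-89799437, read 6.69 and 6.57 in clone 41 and 6.26 and 6.44 in clone 18, against 6.23 and 6.20 in IgM cells and 6.27 and 6.62 in untransfected cells. The groups overlapped, and 1 untransfected array, at 6.62, was saturated. The log2 difference was 0.16 ± 0.13, with a 95% interval of -0.16 to 0.47 (limma adjusted p = 0.451), and its sign turned under quantile normalization (-0.01) and in the authors' deposited log2 table (-0.12).

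The dimmer Hax1 probe read 4.29 and 4.56 in clone 41 and 4.06 and 4.16 in clone 18, against 3.86 and 3.63 in IgM cells and 4.21 and 4.84 in untransfected cells. The IgM arrays were the lowest for both Hax1 probes. With the dimmer probe the log2 difference between IgE and control lines was 0.13 ± 0.18 (95% interval -0.29 to 0.56, limma adjusted p = 0.639). Against IgM cells, clone 41 differed by 0.69 ± 0.25 (adjusted p = 0.162) and clone 18 by 0.37 ± 0.25 (adjusted p = 0.401). Against untransfected cells, clone 41 differed by -0.10 ± 0.25 (adjusted p = 0.853) and clone 18 by -0.42 ± 0.25 (adjusted p = 0.333).

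**Figure D2:**
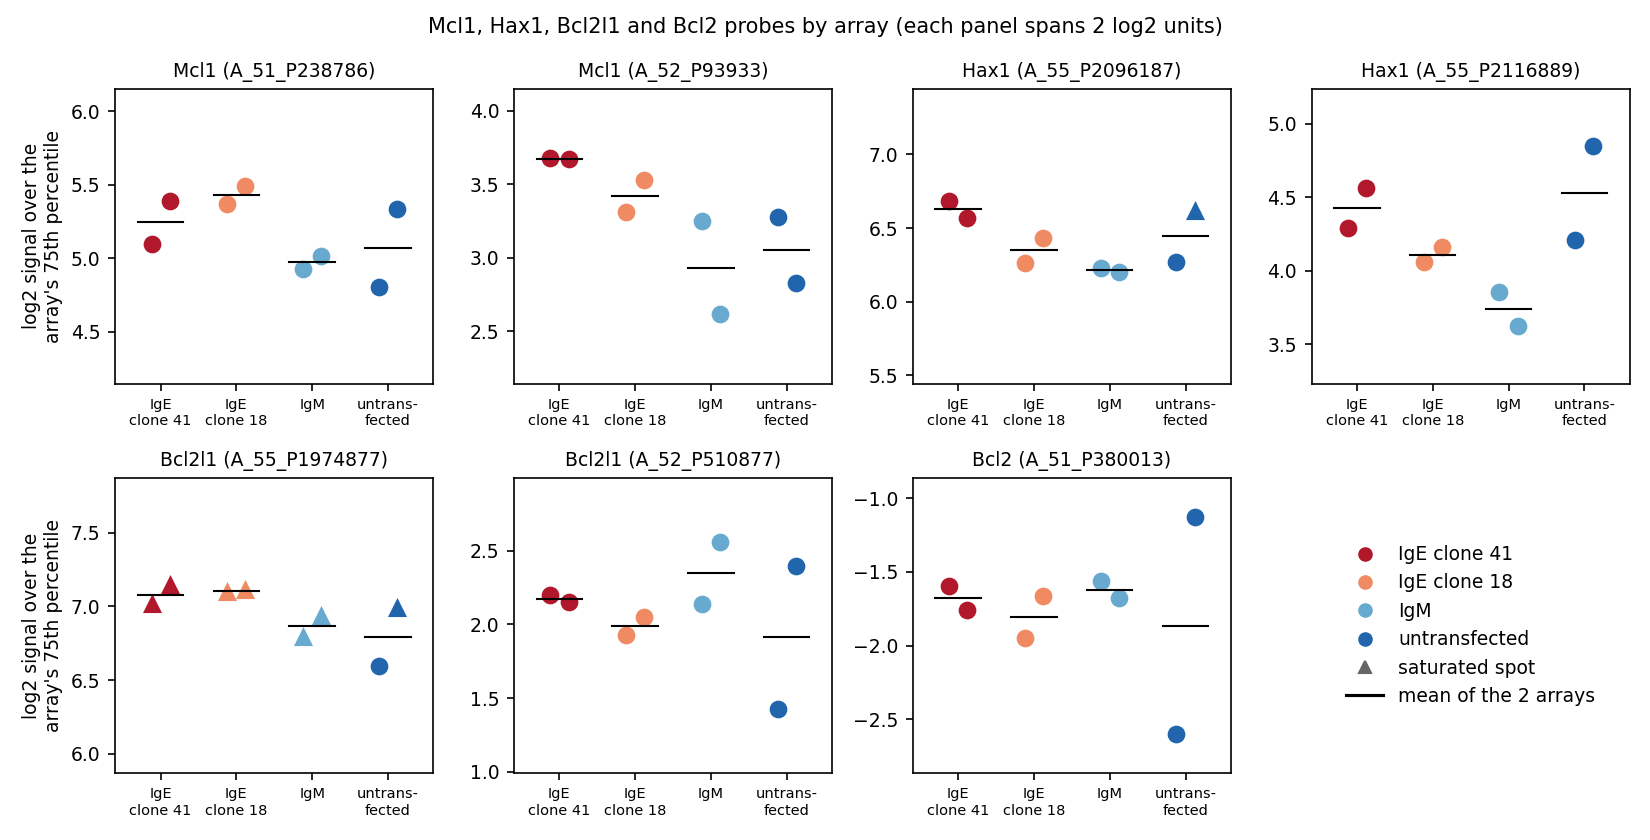
Log2 signal, relative to each array's 75th percentile, of the 7 Mcl1, Hax1, Bcl2l1 and Bcl2 probes on each of the 8 arrays, by line, with every panel spanning the same range. Triangles are saturated spots and black lines are means of the 2 arrays of a line. The untransfected arrays lie widest apart for Bcl2 (-2.60 and -1.13), and 1 Bcl2l1 probe is saturated on 7 of 8 arrays.

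Member probes called in each single pair of lines were few. Clone 41 had 1 of 9 called against IgM cells, where 7.23% of all probes were called, and 2 against untransfected cells, where 5.51% were. Clone 18 had 1 of 9 called against IgM cells, where 8.84% of all probes were called, and 1 against untransfected cells, where 7.46% were. All of these were Bcl2a1 probes, and both clone 18 calls were of Bcl2a1c, not well above background in the lines compared. IgM against untransfected cells gave 0 of 9 with limma, where 1.82% of all probes were called and 2 members reached an unadjusted p under 0.05. Clone 41 against clone 18 gave 0 of 9 with limma, where 0.261% were called and 1 member reached an unadjusted p under 0.05.

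**Figure D3:**
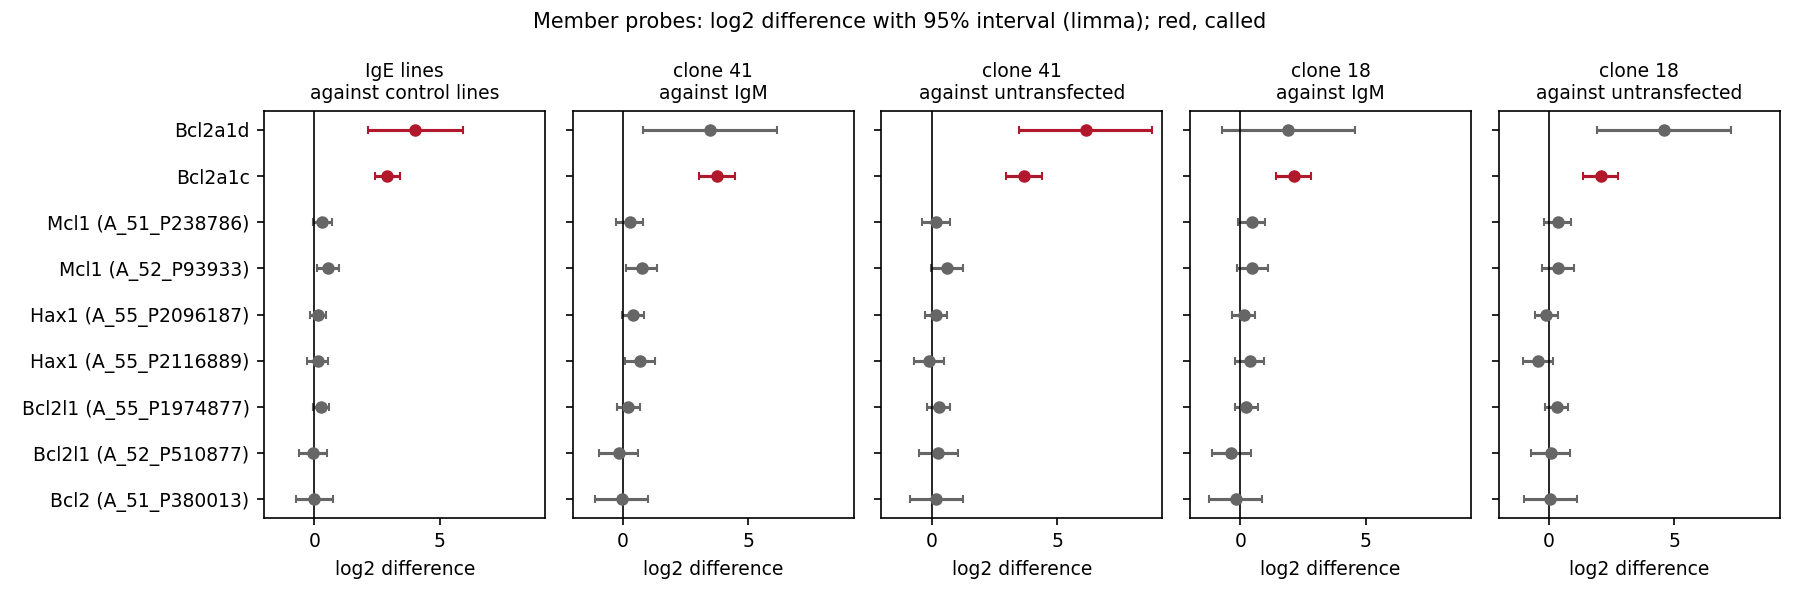
Log2 difference with its 95% interval from limma for the 9 member probes tested, in the comparison of IgE with control lines and in the 4 pairs of a clone and a control line. Red points passed an adjusted p under 0.05 with at least 2-fold change: Bcl2a1c in all 5 panels, with only clone 41 well above background, and Bcl2a1d in the comparison of all lines (4.03) and for clone 41 against untransfected cells (6.14).

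Among the proteins that the family restrains, the BH3-only proteins and effectors, 8 of 11 genes were tested. In the IgE lines 2 were called higher and 0 lower, where 3.6% and 5.39% of all probes were called. An unadjusted limma p under 0.05 was reached by 6, in both directions. Bcl2l11, Bmf and Bax (log2 difference 0.60) were higher, and Pmaip1 (-0.81), Bad (-0.45) and Bak1 (-0.53) were lower. Of these, Bax (limma adjusted p = 0.0373) and Bad (0.0398) passed the adjusted p but were short of 2-fold. Pmaip1 (0.103) and Bak1 (0.0714) did not pass it. The median log2 difference was 0.08, against 0.05 over all probes. Bcl2l11, which encodes Bim, averaged 2.05 in clone 41 and 2.31 in clone 18, against 0.36 in IgM cells and -0.35 in untransfected cells (log2, n = 2 arrays each), a 4.52-fold higher signal (limma adjusted p = 0.00435). The untransfected arrays had an SD of 0.95. Clone 41 against IgM cells was not called (1.69 ± 0.42, limma adjusted p = 0.0593), nor with another Bcl2l11 probe (adjusted p = 0.0531). The other pairs of a clone and a control line were called with both probes. Bmf, another BH3-only protein, was 2.15-fold higher (log2 difference 1.10 ± 0.26, limma adjusted p = 0.0311). That call was lost without untransfected replicate 1, IgM replicate 1, either clone 18 array or clone 41 replicate 2, with log2 differences of 0.90 to 1.13. It was also lost under normexp (0.99, short of 2-fold), with no filter on dim probes and in the authors' deposited log2 table (0.99).

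The inhibitors of caspases had 10 of 11 genes tested, with 0 called by limma, 5 at an unadjusted p under 0.05, and a median log2 difference of -0.29. By their brightest probes, Naip1 (-0.76, limma adjusted p = 0.00787) and Naip2 (-0.87, adjusted p = 0.00767) were lower but short of 2-fold. A dimmer Naip1 probe went the other way (0.45, adjusted p = 0.143). In clone 41 against untransfected cells these 2 genes were called lower, where 5.51% of all probes were called. Birc3 (cIAP2), an NF-kB target, differed by 0.03 ± 0.17 (limma adjusted p = 0.918). Cflar, the inhibitor of caspase-8 activation, differed by -0.45 ± 0.33 (limma adjusted p = 0.385) by its brightest probe.

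NF-kB subunits and inhibitors had 12 of 13 genes tested, with 0 called by limma, 2 at an unadjusted p under 0.05 and a median of -0.04. By adjusted p alone, 1 of them was lower. Nfkb1, the p105 and p50 subunit, differed by 0.05 ± 0.13 (limma adjusted p = 0.821), and the probe for Rel, the c-Rel subunit, was not well above background on any array. Of the genes that control Mcl1 turnover, 4 of 5 were tested, with 0 called by limma, 1 at an unadjusted p under 0.05 and a median of 0.02.

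Of the Hax1 partners, 6 of 7 were tested, with 0 called by limma, 2 at an unadjusted p under 0.05 and a median of 0.20. Hcls1, the actin-binding protein for which Hax1 is named, differed by 0.21 ± 0.18 (limma adjusted p = 0.469), and Htra2, the mitochondrial protease, by 0.19 ± 0.32 (limma adjusted p = 0.726). The other Bcl2 relatives had 4 of 5 tested with 0 called by limma, 0 at an unadjusted p under 0.05 and a median of 0.08. The apoptosome genes had 7 of 7 tested with 0 called by limma, 2 at an unadjusted p under 0.05 and a median of -0.20. By adjusted p alone, 1 of them was lower.

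**Figure D4:**
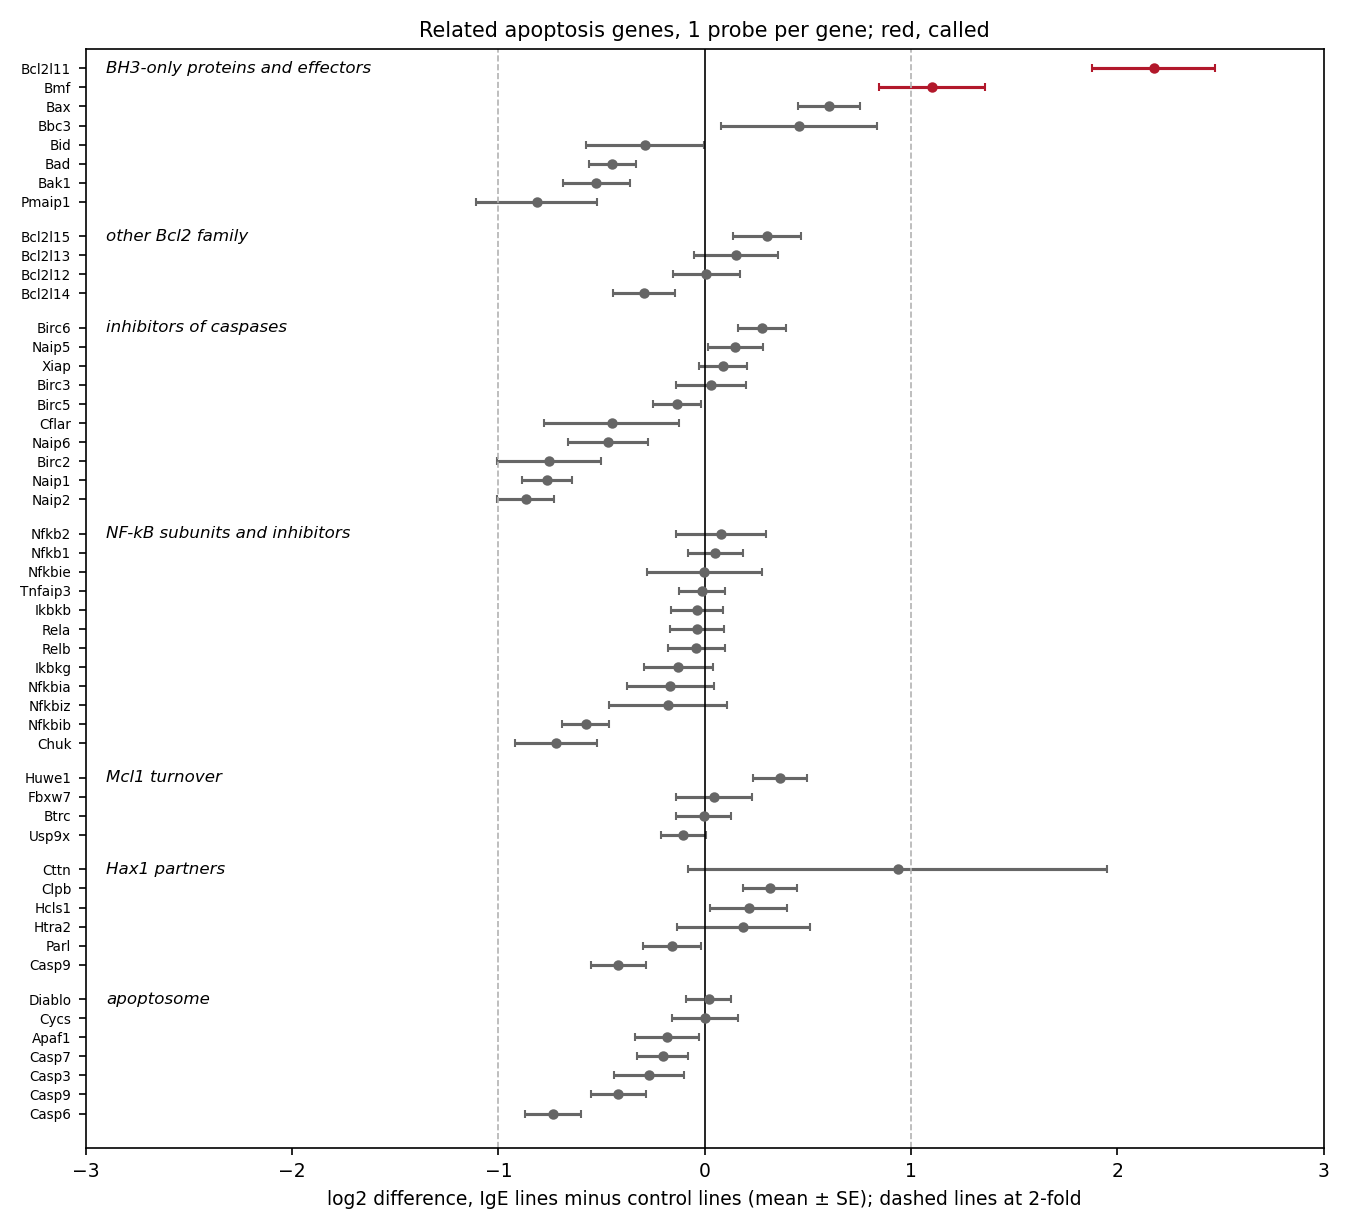
Log2 difference between IgE and control lines, with its SE, for the tested genes of 7 lists related to the family, 1 probe per gene, with dashed lines at a 2-fold change. Red points, Bcl2l11 and Bmf, were called, and all other genes drawn were not.

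Over the 8 arrays, the named probes whose log2 values were most like those of the Bcl2a1d probe were Nfya (Pearson r = 0.985), Exoc4 (0.983), Zfp958 (0.981), Mcc (0.981) and 2810429I04Rik (0.977). Those most like the brighter Hax1 probe were Lrrc58 (0.965), 5730494N06Rik (0.958), Psat1 (0.957), 2700007P21Rik (0.947) and Zfp787 (0.946). These are the highest of many correlations over 8 arrays that share 4 lines, and they are given as a description.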

How the data were processed

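RNA of 4 A20 lines was read on 8 arrays of 1 slide with 1 scan time, each line filling a slide column, so line and slide column cannot be told apart. Per the file headers, the deposited processed intensity was made with Agilent Feature Extraction 10.7.3.1 by background subtraction and detrending, with no normalization between arrays. The authors also deposited a log2 value table, whose scale was inferred from its values: it ranks probes as the median pixel intensity does, its columns have medians of 5.90 to 5.92, and no label or header states its normalization.

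Processed intensities were put on the log2 scale and the array's 75th percentile was subtracted. Control and outlier-flagged spots were left out, and spots of a probe were averaged, with 34 probes missing a value. Probes that some line had well above background on each of its arrays were fitted with limma 3.58.1 in R 4.3.3, with 1 mean per line, 4 residual and 2.74 prior degrees of freedom and two-sided tests. The number of arrays limits the precision. The fit was tested on simulated data.

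All 9 members are named, every gene called in a related list up to 4 per direction, 7 fixed related genes, and the 5 probes most like Bcl2a1d and Hax1. The members and lists were chosen with earlier results of these data known. Promoter windows were aligned with Biopython 1.88. Alternatives changed the scaling, background correction, filter, features, priors and samples, 1 at a time. Single values of some marker genes are not reported here.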

Additional observations from a re-analysis of the deposited data

Results flagged for a closer look

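In 2 cases 1 control array stood apart from the other 3 by Dixon's ratio of its gap to the whole range, with a cut of 0.829. Chance alone exceeds that cut in about 1 of 20 groups of 4 like samples. The 4 control arrays are of 2 lines, so that share is only a guide. The Bcl2l2 probe at chr14:55506840-55506899 had a ratio of 0.932 over the control arrays: IgM replicate 1 read -4.67 on the log2 scale, and the other 3 read -7.03 to -6.87, all of them not well above background. The brighter Hax1 probe had a ratio of 0.839: untransfected replicate 2 read 6.62, with a saturated spot, and the other 3 control arrays read 6.20 to 6.27.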

How the results depend on the processing

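No called difference of a member probe turned its direction under any alternative. The count of 2 member probes called higher in the IgE lines was 1 with normexp, with no filter, in the authors' deposited log2 table and with values raised to the floor, 0 among probes well above background on all 8 arrays, a filter that leaves out both Bcl2a1 probes, and 1 to 2 with 1 array left out (1 without either clone 18 array or clone 41 replicate 1). The count called lower was 0 throughout. For clone 18 against untransfected cells (1 called), it was 2 with median scaling or the trend prior, 0 in the deposited table and with all 8 arrays required, and 0 to 2 with 1 array left out (2 without either untransfected array, 0 without either clone 18 array). For clone 18 against IgM cells (1 called), it was 2 with median scaling, 0 with normexp, in the deposited table, with values raised to the floor or with all 8 arrays required, and 0 to 2 with 1 array left out (2 without either untransfected array, 0 without clone 18 replicate 2). For clone 41 against untransfected cells (2 called), it was 1 with no filter, 0 with all 8 arrays required, and 1 to 2 with 1 array left out (1 without any of the 4 IgE arrays). For clone 41 against IgM cells (1 called), it was 3 with median scaling, 2 with normexp, the deposited table or values raised to the floor, 0 with all 8 arrays required, and 1 to 2 with 1 array left out (2 without either untransfected array). For IgM against untransfected cells (0 called), median scaling gave 1 and leaving out 1 array 0 to 1 (1 without untransfected replicate 1). For clone 41 against clone 18 (0 called), median scaling gave 1. The 3 called with median scaling for clone 41 against IgM cells were both Bcl2a1 probes and the dimmer Mcl1 probe. Beyond the filter on all 8 arrays, the cause of these moves was not tested. With the replicate number, which is also the slide row, as a block, clone 18 against untransfected cells had 2 called (Bcl2a1d adjusted p = 0.0441) and no other member count moved. The arrays share only a number by the labels: same-numbered arrays deviated together with a correlation over 0.1 in 4 of 6 pairs of lines, over a range of -0.04 to 0.31, and a single row holds 1 array per line, so no value within a row has a spread. Over all probes, the 1050 called higher and 1570 called lower in the IgE lines were 563 and 781 with normexp, 595 and 932 in the deposited table, 681 and 835 with all 8 arrays required, 2406 and 2542 by adjusted p alone. Signal over background limits Bcl2a1c and Bcl2l2, and saturation limits the brighter Bcl2l1 probe.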

Other observations

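Probes within 100 kb on either side of the member probes were examined for shifts shared along the chromosome. Around the Bcl2a1d probe 11 other probes were tested, and 0 were called by limma. Around the Bcl2a1c probe 2 were tested and 1 was lower in the IgE lines, 4921528I07Rik (log2 difference -1.82 ± 0.44, limma adjusted p = 0.0344). Around Mcl1, 25 were tested with 2 lower, and around Bcl2l2, 14 were tested with 3 lower, where 5.39% of all probes were called lower. The 2 near Mcl1 are named for the same interval and strand. Of the 3 near Bcl2l2, 2 are named for the same interval and strand, and the other lies between them. Neighbours such as Ensa near Mcl1 (log2 difference 0.45 ± 0.13, limma adjusted p = 0.0610), and Homez (0.08) and Pabpn1 (0.21) near Bcl2l2, were not called. The called probes near Mcl1 and near Bcl2l2 thus describe a single place by each gene. Counts of calls cannot show a shared shift of less than 2-fold, which was not tested. Around Hax1 and Bcl2, 7 and 6 were tested, with 0 called by limma.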
